A study of Mus musculus with 8 samples.

Results

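Infiltrating or residual blood cells were looked for in CD11b+ brain cells through 9 genes that mark blood neutrophils and monocytes: S100a8, S100a9, Retnlg, Ngp, Camp, Cxcr2, Ly6c2, Ccr2 and Plac8. They were taken by name from the 20308 genes of the per-mouse count tables and not by a cutoff on their values, though with earlier results of these data known. CD11b, an integrin chain, is carried by neutrophils and monocytes as well as by microglia, so beads against it retain blood myeloid cells where these are present. Each of 8 mice gave 1 RNA-seq library. The 4 control mice (animal numbers 1827, 1872, 1874 and 1934) and the 4 CSF1 OE mice (1931, 1932, 1936 and 2019) were F1 animals of C57Bl/6 and CD1, aged p14 or p15. CSF1 OE mice carried a transgene for secreted CSF1, the growth factor of microglia and other macrophages, expressed through the TRE/tTA system in a subset of GFAP+ cells. The labels describe the control mice only as controls for the overexpression, and which transgenes they carried is not given there. All mice were perfused with PBS before the right brain hemisphere was taken, which empties vessels of blood to a degree that these data do not measure.

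Neutrophils are short-lived granulocytes that mature in bone marrow and fill successive sets of granules as they do so. Immature cells make the primary granule enzymes, later stages make the secondary granule proteins, and mature cells in blood carry S100a8 and S100a9 protein in bulk in their cytoplasm. Classical monocytes leave the marrow through the chemokine receptor Ccr2 and carry Ly6C on their surface. Parenchymal microglia arise from yolk sac precursors and are not replaced from blood in the healthy brain.

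Values are given as CPM, the rounded expected count of a gene scaled to the TMM-normalized library size, and CSF1 OE mice are compared with control mice throughout. Library totals ranged from 12908144 to 15475465 counts in control mice and from 12053259 to 14356532 in CSF1 OE mice. A gene with 0 counts could have had up to 3, which corresponded to between 0.177 and 0.266 CPM depending on the library, counting error only. The microglial markers P2ry12, Cx3cr1 and Tmem119 were abundant in all 8 mice, and the summed level of 10 microglial genes ran from 15834 to 28346 CPM in the controls and from 19610.2 to 28576 CPM in CSF1 OE mice. Of those 10 genes 3 were higher and 7 lower, with 0 called by the edgeR test described below. With edgeR 1 had an unadjusted p under 0.05, against 16.5% of all genes. DESeq2 called 1 (Fcrls, lower), against 3.14% of all genes, and limma 0. Per kilobase of exon, P2ry12 had a median of 1671 CPM over the 8 mice. On the same scale S100a9, the most abundant of the 9 blood genes, had a median of 39.0 CPM per kilobase, and Ly6c2, the least abundant, had 0.564. In bulk RNA, fewer cells of a type and less RNA per cell cannot be told apart.

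All 9 genes passed edgeR's filter on low counts, which kept 13407 genes. A gene was called where the Benjamini-Hochberg adjusted p of edgeR's quasi-likelihood test was under 0.05 and the fold change was under 0.7 or over 1.43, which called 59 genes or 0.440% of those tested. None of the 9 blood genes was called by edgeR. With edgeR 1 of the 9, Plac8, had an unadjusted p under 0.05, against 16.5% of all genes. DESeq2 called 1 of 9, again Plac8, against 3.14% of all genes, and limma on the deposited normalized values called 0 of 9, against 0.783%. The groups did not overlap in 1 of 9 genes, Plac8, against 10.3% of all genes. The median log2 fold change of the 9 genes, CSF1 OE against control, was 0.19, and that of all genes tested was -0.034.

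**Figure D1:**
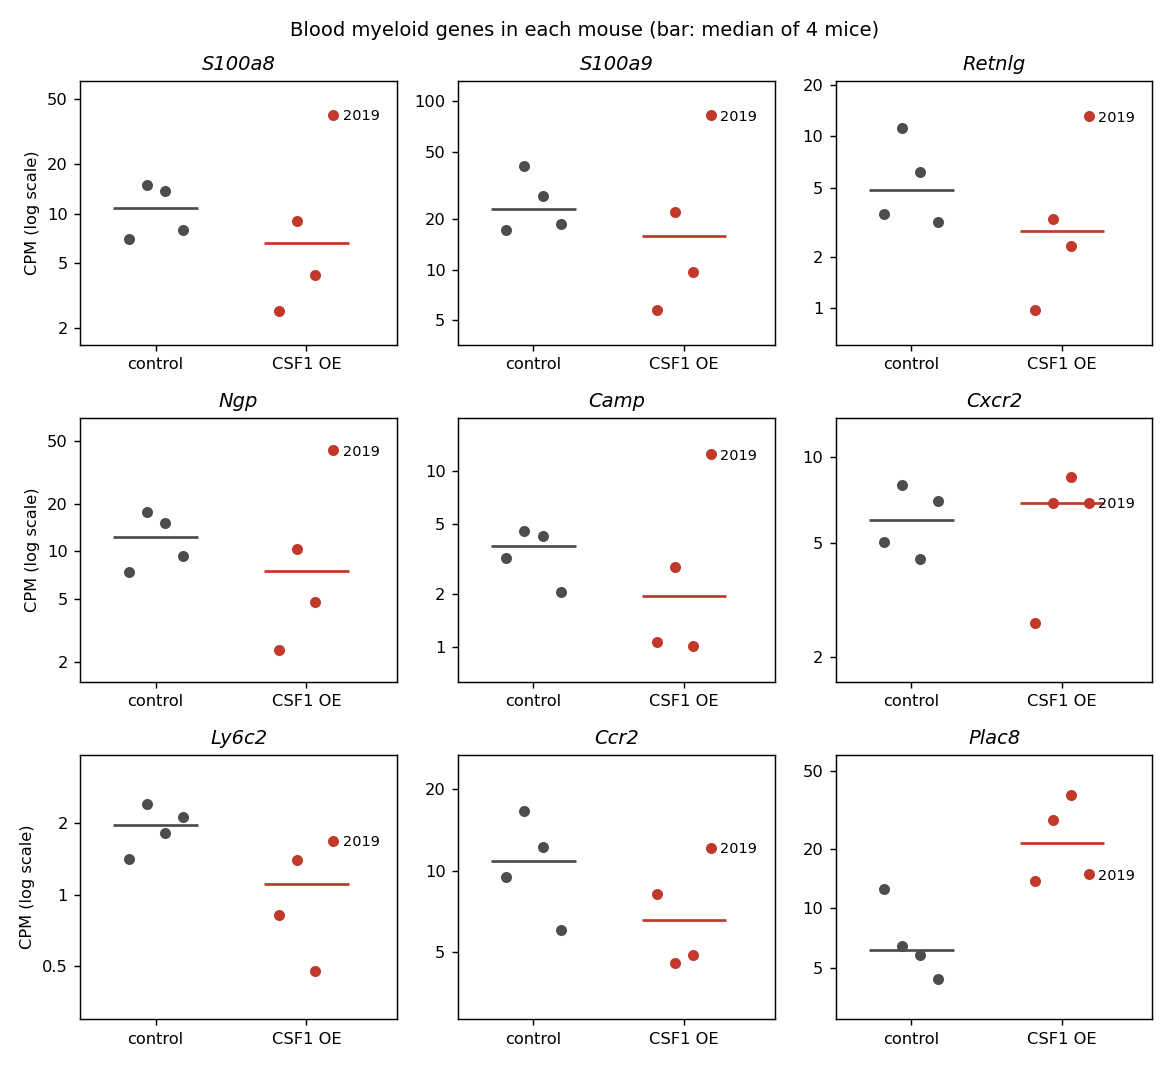
CPM of the 9 blood myeloid genes on log scales, 1 point per mouse, with grey for control and red for CSF1 OE and a bar at the median of the 4 mice. CSF1 OE mouse 2019, labelled, is the highest point for S100a8, S100a9, Retnlg, Ngp and Camp, and the groups are apart only for Plac8.

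The 5 genes of granulocyte proteins differed more between mice of one group than between the groups. S100a8 and S100a9 encode the 2 chains of calprotectin, the abundant calcium- and zinc-binding protein of neutrophil cytoplasm. They lie near each other on chromosome 3, S100a8 from 90668978 to 90670035 and S100a9 from 90692632 to 90695721 (GRCm38, GENCODE M21, as for all positions of genes below). S100a9 had 17.2, 41.3, 27.3 and 18.7 CPM in control mice 1827, 1872, 1874 and 1934. In CSF1 OE mice 1931, 1932, 1936 and 2019 it had 5.75, 22.0, 9.68 and 82.4 CPM. The lowest and the highest of the 8 mice were thus both CSF1 OE, 14.3 times apart, with the controls in between. S100a8 had 7.05, 14.9, 13.7 and 7.92 CPM in the control mice and 2.55, 9.04, 4.23 and 40.2 CPM in the CSF1 OE mice, in the same order of animals, and its groups overlapped in the same way. The log2 fold change was 0.19 for S100a9 (standard error, SE, 0.73, edgeR adjusted p = 0.911). For S100a8 it was 0.36 (SE 0.76, edgeR adjusted p = 0.832). The CSF1 OE mean of S100a8 was 1.29 times the control mean while its median was 0.614 times the control median, since a single mouse carried most of the CSF1 OE sum.

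Ngp and Camp encode secondary granule proteins, neutrophilic granule protein and the antimicrobial cathelicidin, and are transcribed in developing rather than in mature neutrophils. Ngp lies on chromosome 9 from 110419747 to 110423012 and Camp on the same chromosome from 109847379 to 109849617. Ngp had 7.46, 17.8, 15.2 and 9.40 CPM in the control mice and 2.38, 10.4, 4.77 and 43.8 CPM in the CSF1 OE mice. Camp had 3.22, 4.56, 4.31 and 2.07 CPM in the control mice and 1.07, 2.87, 1.02 and 12.5 CPM in the CSF1 OE mice. Both repeated the pattern of the calprotectin genes, with mouse 2019 far above the other 7. Retnlg encodes resistin-like gamma, a small secreted protein of mature neutrophils, on chromosome 16 from 48872621 to 48874496. It had 3.56, 11.1, 6.20 and 3.19 CPM in the control mice and 0.986, 3.31, 2.32 and 13.1 CPM in the CSF1 OE mice, so that control mouse 1872 came close to mouse 2019. The log2 fold changes were 0.29 for Ngp (SE 0.77), 0.29 for Camp (SE 0.75) and -0.30 for Retnlg (SE 0.73), with adjusted p values from edgeR of 0.866, 0.865 and 0.854.

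CSF1 OE mouse 2019 set the sign of these 5 values for 4 of the genes. Its level was 2.73 times that of the next highest mouse for Camp, 2.70 times for S100a8, 2.46 times for Ngp, 1.996 times for S100a9 and 1.18 times for Retnlg. Mouse 2019 was the highest of the 8 mice in 2375 of the 13407 genes tested, or 17.7%. Without it the log2 fold changes were -1.04 for S100a8, -1.06 for S100a9, -1.09 for Ngp, -1.09 for Camp and -1.44 for Retnlg, with standard errors from 0.45 to 0.55. None of the 9 genes was called without it (adjusted p from 0.237 to 0.308 for these 5, from edgeR), where 0.528% of all genes were. With all 8 mice, limma's trend method on log2 values also gave negative fold changes, -0.38 for S100a8, -0.46 for S100a9, -0.46 for Ngp and -0.41 for Camp, none called. At an unadjusted p under 0.05 from edgeR, 6 of the 9 passed without mouse 2019, of which 5 were lower in CSF1 OE, against 17.2% of all genes. With all 8 mice 1 of the 9 passed, Plac8. Mouse 2019 was the highest CSF1 OE mouse for the 5 granulocyte genes and also for Ly6c2 (1.68 CPM) and Ccr2 (12.1 CPM). Leaving it out therefore lowers the CSF1 OE mean of all of these genes in advance. S100a8, Retnlg and Camp, which are among the 6, also varied together over the mice and are not separate results.

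**Figure D2:**
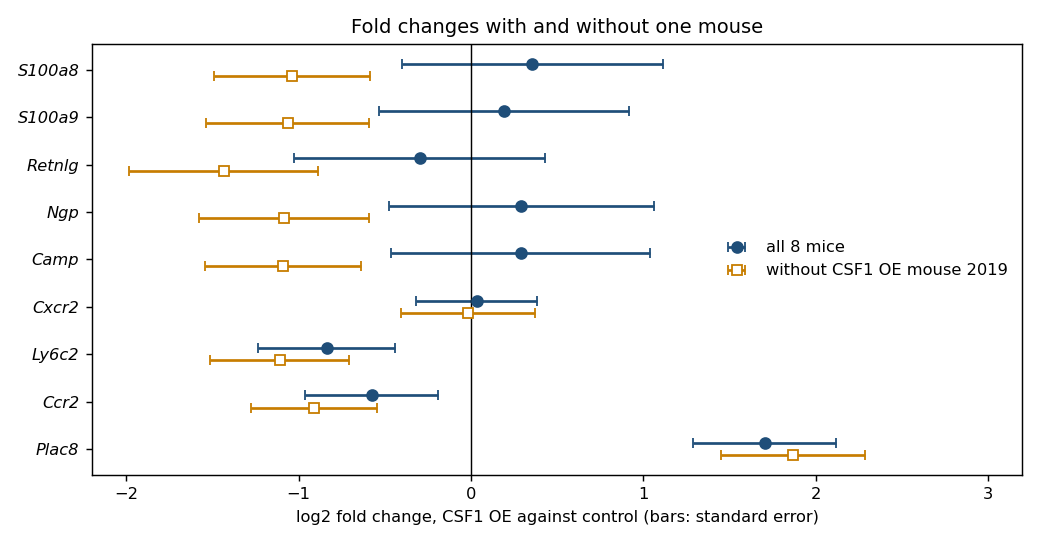
Log2 fold change of each gene, CSF1 OE against control, with its standard error from edgeR. Filled circles are the fit to all 8 mice and open squares the fit without CSF1 OE mouse 2019, in which S100a8, S100a9, Ngp and Camp move from between 0.19 and 0.36 to between -1.04 and -1.09 and Plac8 stays positive.

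Within a mouse the 5 granulocyte genes kept nearly fixed proportions. The ratio of S100a8 to S100a9 CPM lay between 0.360 and 0.501 over the 8 mice, a range of 1.39 times, while S100a9 itself ranged 14.3 times. The ratio of Ngp to S100a9 lay between 0.414 and 0.557, that of Retnlg between 0.151 and 0.270, and that of Camp between 0.106 and 0.188. Mouse 2019 had ratios of 0.488, 0.532, 0.159 and 0.151 for S100a8, Ngp, Retnlg and Camp, all inside the range of the other 7 mice. Mouse 2019 thus stood apart in the amount of these RNAs and not in their proportions. Over the 8 mice, Pearson's r of log2 CPM with S100a9 was 0.99 for S100a8, 0.99 for Ngp, 0.97 for Retnlg and 0.96 for Camp, and 0.99, 0.99, 0.96 and 0.92 without mouse 2019. These values are descriptions, since the genes were read from the same libraries and share their depth.

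The other 4 genes did not follow S100a9 in this way. The ratio to S100a9 ranged 10.5 times over the mice for Cxcr2, 7 times for Ly6c2, 9.71 times for Ccr2 and 25 times for Plac8, with Pearson's r of 0.49, 0.70, 0.56 and -0.28. Mouse 2019, with the most S100a9, had the lowest ratio of the 8 mice for Cxcr2 (0.0838), Ly6c2 (0.0204) and Ccr2 (0.147).

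**Figure D3:**
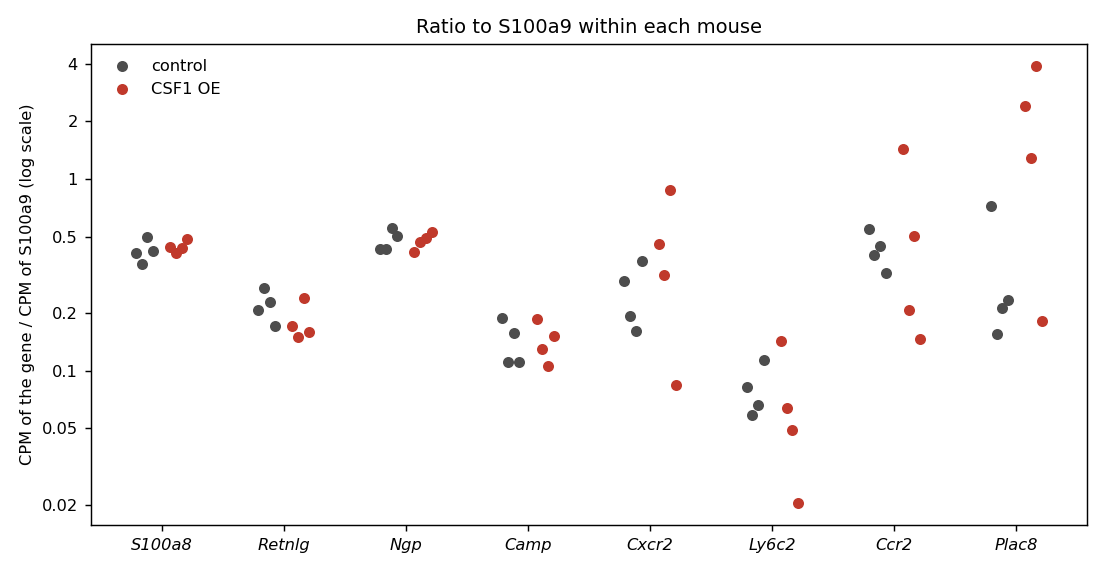
CPM of each gene divided by CPM of S100a9 in the same mouse, on a log scale, with 4 control (grey) and 4 CSF1 OE (red) points per gene. S100a8, Retnlg, Ngp and Camp stay within 1.39, 1.79, 1.34 and 1.77 times over the mice, while Cxcr2, Ly6c2, Ccr2 and Plac8 spread over 7 to 25 times.

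The sequence before the start of the 5 granulocyte genes is shown because their RNAs moved together from mouse to mouse, and that of Plac8 because it did not move with them. The sequences are those of RefSeq (GRCm38.p6), which held a promoter for all 9 genes, from up to 250 bases before the RefSeq start, on the strand of the gene, and cut where the transcript of either RefSeq or GENCODE begins. They lie at chr3:90668821-90668977 (+ strand), chr3:90695722-90695971 (- strand), chr16:48872358-48872607 (+ strand), chr9:110419558-110419746 (+ strand), chr9:109849618-109849706 (- strand) and chr5:100572246-100572455 (- strand). Capitals mark matches on either strand to TTGCNNAA, a core of C/EBP factors that direct granule genes, or to GAGGAA, a core of the ETS factor PU.1 of myeloid cells.
S100a8: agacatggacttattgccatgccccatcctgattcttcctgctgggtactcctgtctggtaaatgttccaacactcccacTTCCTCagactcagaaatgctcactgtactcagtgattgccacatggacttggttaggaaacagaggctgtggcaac
S100a9: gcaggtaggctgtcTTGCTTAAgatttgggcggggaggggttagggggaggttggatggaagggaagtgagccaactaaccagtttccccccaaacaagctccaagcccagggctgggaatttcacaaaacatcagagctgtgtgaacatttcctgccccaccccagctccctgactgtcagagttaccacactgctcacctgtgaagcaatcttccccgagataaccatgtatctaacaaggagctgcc
Retnlg: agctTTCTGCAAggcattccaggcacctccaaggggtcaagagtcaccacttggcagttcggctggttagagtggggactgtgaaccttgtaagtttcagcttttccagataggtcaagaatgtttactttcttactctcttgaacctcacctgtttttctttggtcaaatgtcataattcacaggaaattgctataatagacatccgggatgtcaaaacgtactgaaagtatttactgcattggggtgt
Ngp: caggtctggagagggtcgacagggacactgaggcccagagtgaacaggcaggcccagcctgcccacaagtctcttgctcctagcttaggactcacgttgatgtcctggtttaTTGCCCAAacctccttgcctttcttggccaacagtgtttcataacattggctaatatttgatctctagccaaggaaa
Camp: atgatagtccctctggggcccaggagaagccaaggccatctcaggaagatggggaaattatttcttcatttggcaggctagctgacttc
Plac8: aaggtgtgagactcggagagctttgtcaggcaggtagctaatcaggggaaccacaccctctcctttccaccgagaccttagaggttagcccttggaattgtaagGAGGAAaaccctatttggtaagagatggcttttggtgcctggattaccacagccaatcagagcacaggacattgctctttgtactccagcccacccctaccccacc
In the full 250 bases before the first RefSeq start, TTGCNNAA was found in 3 of the 9 genes (S100a9, Retnlg and Ngp), against 9.56% of 32851 promoters of that length. GAGGAA was found in 4 of 9 (S100a8, Cxcr2, Ly6c2 and Plac8), against 23.3%. A further GAGGAA match of S100a8 and of Plac8 and a further TTGCNNAA match of Ngp lie beyond the printed bases, nearer to the RefSeq start. The matches describe letters and not factor binding.

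Cxcr2, the receptor through which neutrophils follow CXC chemokines, did not share the excess of mouse 2019. The gene lies on chromosome 1 from 74153989 to 74161246. It had 5.04, 7.95, 4.39 and 7.04 CPM in control mice 1827, 1872, 1874 and 1934, and 2.63, 6.91, 8.52 and 6.90 CPM in CSF1 OE mice 1931, 1932, 1936 and 2019. Mouse 1931 was the lowest, as for 4 of the 5 granulocyte genes, mouse 1936 was the highest, and control values lay between them. Its log2 fold change was 0.03 (SE 0.35, edgeR adjusted p = 0.966). RSEM divided some of its reads between genes, since its expected counts were not whole numbers in 8 of 8 libraries and 10.2% of its 25-base windows also occur in transcripts of other genes (GENCODE M21). Of its 100-base windows 0% do.

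Both markers of classical monocytes had lower means in CSF1 OE than in control mice, and neither was called. Ccr2, the receptor for Ccl2 that brings monocytes out of the marrow and into tissue, lies on chromosome 9 from 124101950 to 124113557. Ccr2 had 9.47, 16.6, 12.2 and 6.03 CPM in the control mice. It had 8.21, 4.56, 4.91 and 12.1 CPM in the CSF1 OE mice, with overlap, and mouse 2019 lay within the control range. Its log2 fold change was -0.57 (SE 0.39, edgeR adjusted p = 0.487). With a model term for animal number (1931 to 1936 or not) it was -0.057 (SE 0.27, edgeR adjusted p = 0.902). The difference in mean log2 CPM was -0.083 within mice 1931 to 1936 (1 control, 3 CSF1 OE) and -0.034 within the other 4 (3 control, 1 CSF1 OE). Ly6c2 encodes a Ly6C antigen and lies on chromosome 15 from 75108158 to 75111970. It had 1.41, 2.42, 1.81 and 2.13 CPM in the control mice and 0.821, 1.40, 0.477 and 1.68 CPM in the CSF1 OE mice, on the basis of 7 to 36 counts in a library. Its log2 fold change was -0.84 (SE 0.40, edgeR adjusted p = 0.330), and the highest CSF1 OE mouse was above the lowest control mouse. Within the same ranges of numbers the Ly6c2 difference was -1.22 and -0.12.

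Ly6c2 was the least certain of the 9 values, because its reads cannot be fully separated from those of Ly6c1, a near copy made by brain endothelium. Of its 25-base windows 25.1% also occur in Ly6c1, and of its 100-base windows 5.81%. Ly6c2 was given only 0.990% to 7.01% of the summed count of both genes. The sum, which does not depend on that division, was 66.9 ± 15.9 CPM in the controls and 36.9 ± 10.2 CPM in CSF1 OE mice (SD, n = 4 each), a log2 difference of -0.87 (two-sided exact permutation test, p = 0.0286, the smallest that 70 assignments can give). With plain library totals in place of TMM the difference was -0.93 (two-sided exact permutation test, p = 0.0571), and the same p was found without any 1 of 6 of the mice. Ly6c1 made up most of the sum, and 12 of 12 endothelial genes, Ly6c1 among them, were lower in CSF1 OE. Of these, edgeR called 0, with 4 at an unadjusted p under 0.05, against 16.5% of all genes. DESeq2 called 1 (Ly6c1), against 3.14% of all genes, and limma 0. With the term for animal numbers, edgeR called 9 of the 12, all lower and Ly6c1 among them, against 9.50% of all genes, and 11 had an unadjusted p under 0.05, against 32.6%. Without mouse 2019, edgeR called 0 of the 12, with 2 at an unadjusted p under 0.05, against 17.2% of all genes. Leaving out that mouse, which had the lowest endothelial sum, raises the CSF1 OE mean in advance. It is also the lone CSF1 OE mouse outside numbers 1931 to 1936. The 12 genes were read from the same libraries and are not separate results. They summed to 1151 to 1925 CPM in the controls and 569.8 to 1329.9 CPM in CSF1 OE mice. Their part in the difference of the sum was not tested.

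Plac8, a cysteine-rich protein of monocytes, neutrophils and other leukocytes, was the exception among the 9 genes. It lies on chromosome 5 from 100553725 to 100572245. It had 12.5, 6.43, 5.82 and 4.38 CPM in control mice 1827, 1872, 1874 and 1934, and 13.8, 28.2, 37.7 and 14.96 CPM in CSF1 OE mice 1931, 1932, 1936 and 2019. Every CSF1 OE mouse was above every control mouse, though mouse 1931 exceeded control mouse 1827 only slightly. The mean was 7.28 ± 3.58 CPM in the controls and 23.7 ± 11.4 CPM in CSF1 OE mice (SD, n = 4 each). The log2 fold change was 1.70 (SE 0.41), with an unadjusted p of 0.00259 and an adjusted p of 0.0948 from edgeR, above the threshold. DESeq2 called it higher (adjusted p = 0.00209). Over 14 alternatives its log2 fold change ran from 1.39 to 2.10 and its adjusted p from 0.00209 to 0.262. Within the mice numbered 1931 to 1936, 1 control against 3 CSF1 OE, the difference in mean log2 CPM was 2.45, and within the other 4 mice, 3 control against 1 CSF1 OE, it was 0.93.

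The distribution of Plac8 over the mice was unlike that of the granulocyte genes. Mouse 2019, the highest for all 5 of them, was the second lowest CSF1 OE mouse for Plac8, and mouse 1936, among the lowest for S100a9, was the highest for Plac8. With the same division of the mice by animal number, the S100a9 difference was -0.80 within mice 1931 to 1936 and 1.61 within the other 4, where mouse 2019 is the lone CSF1 OE mouse. With the number range as a term in the model, Plac8 had a log2 fold change of 1.69 (adjusted p = 0.0696 from edgeR), and 0 of the 9 genes was called where 9.50% of all genes were. In that fit 1 of the 9 had an unadjusted p under 0.05, against 32.6% of all genes.

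The list of 31 further neutrophil genes was used to see whether the excess of mouse 2019 extended to them. Of these, 20 were tested, 7 higher and 13 lower in CSF1 OE, with a median log2 fold change of -0.20. None was called by edgeR, and 2 had an unadjusted p under 0.05, Pglyrp1 and Hdc, both lower, against 16.5% of all genes. DESeq2 called 1, Pglyrp1, against 3.14% of all genes, and limma 0. Mouse 2019 was the highest of the 8 mice in 9 of the 20 genes, against 17.7% of all genes and 6 of 10 microglial genes. Over the 20, the median ratio of mouse 2019 to the highest other mouse was 0.955. The 9 genes included Ltf, the secondary granule protein lactoferrin, with 7.10 to 13.97 CPM in the controls and 3.07 to 35.5 CPM in CSF1 OE mice. BC100530, a stefin A gene, was another and had the largest rise in the list (log2 fold change 0.38, SE 0.73, edgeR adjusted p = 0.816). In mouse 2019 Ltf was 2.54 times as high as in the next mouse, beside 2.46 times for Ngp.

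Csf3r was also highest in mouse 2019, at only 1.15 times the next mouse, while Mmp9, Pglyrp1 and G0s2 were highest in control mice. Csf3r, the receptor of the granulocyte growth factor G-CSF, which mouse microglia also express, was the most abundant with 223 to 438 CPM in the controls and 330 to 505 CPM in CSF1 OE mice (log2 fold change 0.18, SE 0.23, edgeR adjusted p = 0.719). Mmp9, the gelatinase of tertiary granules, had 10.8 to 41.2 CPM in the controls and 11.8 to 23.7 CPM in CSF1 OE mice (log2 fold change -0.65, SE 0.38, edgeR adjusted p = 0.417). Pglyrp1, a peptidoglycan-binding granule protein, had 17.3 to 31.5 CPM in the controls and 8.497 to 17.2 CPM in CSF1 OE mice, without overlap. Its log2 fold change was -0.82 (SE 0.24, edgeR adjusted p = 0.155). In mouse 2019 Pglyrp1 was 0.270 times the highest other mouse, opposite to Ngp and Camp. The largest fall was that of G0s2, an inhibitor of lipolysis (log2 fold change -0.86, SE 0.50, edgeR adjusted p = 0.422).

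The enzymes of primary granules, which immature neutrophils make, were at or near the limit of detection. Elane, Mpo, Prtn3 and Ctsg together had 16, 3, 9 and 16 counts in the 4 control libraries and 3, 16, 19 and 37 counts in the CSF1 OE libraries 1931, 1932, 1936 and 2019. None of the 4 passed the filter on low counts. Mouse 2019 again had the most, with up to 17 counts of a single gene. Cxcr1, the second CXC receptor of neutrophils, had 0 counts in all 8 libraries, which allows up to 0.177 to 0.266 CPM per library.

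Red cell RNA was compared with granulocyte RNA because blood left in the vessels would carry both. The libraries came from cells selected with beads against CD11b, which neutrophils carry, after Percoll removal of myelin. After that selection the levels need not keep the proportions they have in blood, so their ratio does not measure blood left in the vessels. The 4 globin genes Hbb-bs, Hbb-bt, Hba-a1 and Hba-a2 summed to 793, 248, 292 and 921 CPM in control mice 1827, 1872, 1874 and 1934, and to 50.3, 426, 226 and 38.1 CPM in CSF1 OE mice 1931, 1932, 1936 and 2019. In the same mice, the 5 granulocyte genes summed to 38.5, 89.6, 66.7 and 41.3 CPM in the control mice and to 12.7, 47.5, 22.0 and 192 CPM in the CSF1 OE mice. Mouse 2019 thus had the most granulocyte RNA and the least globin RNA of the 8 mice, with a ratio of 5.04 between the sums, where the other 7 had ratios from 0.0449 to 0.362. The same library had the lowest endothelial sum, 569.8 CPM against 996 to 1925 CPM in the other 7, and the highest microglial sum, 28576 CPM, close to the 28346 CPM of control mouse 1827. The part of these levels in the granulocyte values was not tested. Mouse 1931 was the lowest of the 8 for granulocyte RNA and the second lowest for globin RNA. Among the control mice, the 2 with more granulocyte RNA, 1872 and 1874, had less globin RNA than the other 2.

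**Figure D4:**
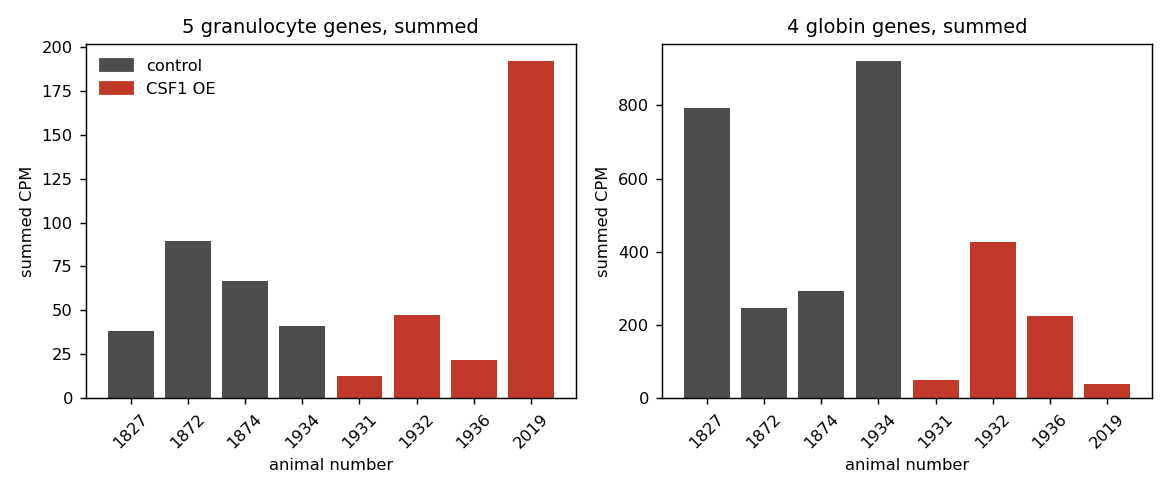
Summed CPM of S100a8, S100a9, Retnlg, Ngp and Camp (left) and of Hbb-bs, Hbb-bt, Hba-a1 and Hba-a2 (right), 1 bar per mouse, grey for control and red for CSF1 OE. Mouse 2019 has the tallest granulocyte bar, 192 CPM, and the shortest globin bar, 38.1 CPM.

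Of 14 red blood cell genes 8 were tested, 7 of them lower in CSF1 OE, with a median log2 fold change of -1.52. None was called by edgeR, DESeq2 or limma, and 0 had an unadjusted p under 0.05 with edgeR, 1 with DESeq2 and 5 with limma, where 18.6% of all genes did with DESeq2 and 17.2% with limma. With the term for animal numbers, edgeR called 1 of the 8, Hba-a2, lower, against 9.50% of all genes. In that fit 7 of the 8 had an unadjusted p under 0.05, against 32.6% of all genes. The whole list summed to 327 to 1029 CPM in the controls and 101 to 517 CPM in CSF1 OE mice. The part of residual blood in the granulocyte values was not tested.

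Most lymphocyte and platelet genes were below the filter on low counts. Of 20 lymphocyte genes 17 were in the tables and 3 were tested. Of these 3, edgeR called 0, with 2 at an unadjusted p under 0.05 (Klrb1c higher and Cd4 lower). DESeq2 called 1 (Cd4, lower) and limma 0. The list summed to 21.2 to 38.9 CPM in the controls and 22.7 to 32.0 CPM in CSF1 OE mice. The defining markers Cd3e and Cd3g of T cells and Ms4a1 of B cells had at most 4 counts in any library, Cd3d had at most 8, and Pax5 of B cells and Ncr1 of NK cells had 0 in all 8. Klrb1c had 0.269 to 0.680 CPM in the controls and 0.955 to 2.05 CPM in CSF1 OE mice, without overlap. Its log2 fold change was 1.53 (SE 0.42, edgeR adjusted p = 0.134), on 4 to 25 counts in a library. Other members of the list were plainly detected, with 104 to 276 counts of Cd4 and 111 to 274 counts of Cd79b in a library. Cd79b had 7.46 to 19.0 CPM in the controls and 11.9 to 15.5 CPM in CSF1 OE mice. Of 9 platelet genes 4 were tested, with 0 called by edgeR, 1 at an unadjusted p under 0.05, 1 called by DESeq2 (Gp1ba, higher) and 0 by limma. Beside both lists, 16.5% of all genes had an unadjusted p under 0.05 with edgeR, and DESeq2 called 3.14%. The platelet list summed to 10.9 to 14.6 CPM in the controls and 12.9 to 17.7 CPM in CSF1 OE mice. The platelet chemokine Ppbp had at most 18 counts.

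In a list of 25 further monocyte genes, 24 were tested, 5 higher and 19 lower in CSF1 OE, with a median log2 fold change of -0.24. None was called by edgeR. With edgeR 7 had an unadjusted p under 0.05, 2 higher (Fcgr4 and Ms4a4c) and 5 lower, against 16.5% of all genes. The groups did not overlap in 6 of the 24, against 10.3% of all genes. DESeq2 called 3, with Fcgr4 higher and Napsa and Adgre4 lower, against 3.14% of all genes, and limma 0. The edgeR fit with the term for animal numbers called 4 (Fcgr4, Fn1, Ms4a4c and S100a4), 3 higher and 1 lower, against 9.50% of all genes. In that fit 8 of the 24 had an unadjusted p under 0.05, against 32.6% of all genes. Ms4a4c, a membrane protein of the MS4A family, had 0.378 to 1.04 CPM in the controls and 1.25 to 2.48 CPM in CSF1 OE mice, the largest rise (log2 fold change 1.34, SE 0.38, edgeR adjusted p = 0.142). Fcgr4, an activating receptor for IgG of nonclassical monocytes and macrophages, had 3.25 to 5.97 CPM in the controls and 7.70 to 10.5 CPM in CSF1 OE mice (log2 fold change 0.89, SE 0.23, edgeR adjusted p = 0.108). Napsa, an aspartic protease, had the largest fall, from 2.22 to 6.80 CPM in control to 1.31 to 2.20 CPM in CSF1 OE mice (log2 fold change -1.18, SE 0.35, edgeR adjusted p = 0.161).

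The most abundant genes of the monocyte list are also made by cells of the brain. The early response gene Nr4a1 had 499 to 1368 CPM in the controls and 583 to 715 CPM in CSF1 OE mice (log2 fold change -0.55, SE 0.29, edgeR adjusted p = 0.382). Fn1, fibronectin, had 477 to 842 CPM and 213 to 499 CPM (log2 fold change -0.73, SE 0.28, edgeR adjusted p = 0.243). Klf2, a factor induced by flow in endothelium, had 312 to 660 CPM and 186 to 778 CPM (log2 fold change -0.28, SE 0.44, edgeR adjusted p = 0.771).

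Dendritic cells and border macrophages were also looked at, since both carry CD11b or share genes with monocytes. Of 12 dendritic cell genes 9 were tested, with 0 called by edgeR. With edgeR 3 had an unadjusted p under 0.05, Bst2 higher and Cd209a and Clec10a lower. DESeq2 called 2 (Bst2 higher, Clec10a lower) and limma 0. The list summed to 627 to 939 CPM in the controls and 779 to 1175 CPM in CSF1 OE mice, of which Siglech, which also stands in the list of microglial genes, made up 532 to 795 and 665 to 1043 CPM. The defining markers Xcr1 and Clec9a had between 5 and 20 counts, while Zbtb46 had 88 to 223. Cd209a had 0.806 to 4.70 CPM in the controls and 0 to 1.24 CPM in CSF1 OE mice, with overlap. Its log2 fold change was -2.87 (SE 0.95, edgeR adjusted p = 0.191), on 0 to 68 counts in a library. All 12 border macrophage genes were tested and all 12 were lower in CSF1 OE. Of these, 0 were called by edgeR, 9 had an unadjusted p under 0.05 with edgeR, and 5 were called by DESeq2 and 0 by limma. Over all genes, 16.5% had an unadjusted p under 0.05 with edgeR, and DESeq2 called 3.14%. The border macrophage genes summed to 3033 to 4182 CPM in the controls and 2139.7 to 3265 CPM in CSF1 OE mice. Mouse 2019 was the highest of the 8 mice for none of the 12 border macrophage and none of the 12 endothelial genes, and for 6 of 10 microglial genes.

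Genes whose products attract neutrophils and monocytes or release them from marrow were mostly lower in CSF1 OE mice without being called. Of 13 such genes 8 were tested, 1 higher and 7 lower in CSF1 OE, with a median log2 fold change of -0.53. None was called by edgeR, DESeq2 or limma, with 1 at an unadjusted p under 0.05 in edgeR and 2 in each of the others. The shares of all genes at that p were 16.5% in edgeR, 18.6% in DESeq2 and 17.2% in limma. With the term for animal numbers, edgeR called 1, Cxcl12, lower, against 9.50% of all genes. The 1 higher gene was Csf1 itself (log2 fold change 0.19, SE 0.33, edgeR adjusted p = 0.796), with 139 to 364 CPM in the controls and 167 to 400.1 CPM in CSF1 OE mice. Ccl2, the ligand of Ccr2, had 60.4 to 139.7 CPM in the controls and 34.1 to 87.8 CPM in CSF1 OE mice. Cxcl1 and Cxcl2, ligands of Cxcr2, had 20.4 to 37.3 and 53.1 to 102 CPM in the controls and 13.9 to 27.5 and 37.7 to 80.1 CPM in CSF1 OE mice. Csf3, the granulocyte growth factor, had at most 2 counts in any library.

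The genes most like S100a8 over the 8 mice, apart from the 9, were Ltf (Pearson's r of log2 CPM 0.985), Gm4944 (0.983) and Epx (0.983), the peroxidase of eosinophils. Gm4944 varied over a much narrower range, from 28.3 to 42.2 CPM against 2.55 to 40.2 CPM for S100a8. Epx was scarce, with 0.532 to 1.59 CPM in control mice, 0.164, 0.882 and 0.204 CPM in CSF1 OE mice 1931, 1932 and 1936, and 3.45 CPM in mouse 2019. The genes most like Ccr2 were Traf2 (0.993), Tial1 (0.980) and Ttc17 (0.980), each of which varied over a narrower range, from 28.1 to 44.6 CPM for Traf2 against 4.56 to 16.6 CPM for Ccr2. The values describe likeness over 8 shared libraries.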

How the data were processed

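CD11b+ cells of the right hemisphere were enriched by the authors with magnetic beads after Percoll removal of myelin, 1 library per mouse (TruSeq RNA v2, a kit that does not mark strand). Per the labels, the authors used bcl2fastq 1.8.4, Bowtie 1.0.0 and RSEM 1.2.7 on mm10 and deposited expected counts per gene symbol, without normalization. The annotation is not given in the sources used here. The authors also deposited a normalized signal, the same expected counts divided by 1 factor per mouse, used here only for limma. RSEM divides reads that fit several genes, which touches Ly6c2, Ccr2 and Cxcr2.

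Expected counts were rounded and tested with edgeR 4.0.16 in R 4.3.3 (TMM, filterByExpr, glmQLFTest). CPM used the TMM library size, and log2 CPM a prior count of 2. Standard errors are the fold change divided by the root of the F statistic. Alternatives were DESeq2 1.42.0, limma 3.58.1 (trend method, pseudocount 1), upper-quartile factors, other filters, plain totals, a model term for animal number range, no fold threshold, and each mouse left out. The labels name no sequencing batch. Nothing in the labels pools animals, and 0 columns were unmapped.

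The 9 genes and the 10 lists were chosen with earlier results of these data known. Named genes are the 9, the 3 most abundant, largest rise and largest fall of the further neutrophil and monocyte lists, and the 3 genes most like S100a8 and Ccr2. Others, such as Ltf in its list, Elane and Ccl2, were chosen after their values were seen. Of 164 listed genes 157 were in the tables, 5 under an older symbol. Positions and lengths come from GENCODE M21 (GRCm38). The scripts were tested on simulated data.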

Additional observations from a re-analysis of the deposited data

Results flagged for a closer look

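In groups of 4 mice, a mouse was marked where its gap to the nearest of the others as a share of the whole range exceeded the critical value of Dixon's test. Of 38 groups examined 2 were marked, where chance marks about 1 in 20. Camp reached 12.5 CPM in CSF1 OE mouse 2019, with a gap of 0.839 of the range, and S100a8, S100a9, Retnlg and Ngp were highest in the same mouse without passing that limit. The summed CPM of the further monocyte genes was 2116 in CSF1 OE mouse 1932, with a gap of 0.992 of the range above the other 3, whose sums lay between 1605 and 1609. Klf2, at 778 CPM in that mouse, took a large share of its sum.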

How the results depend on the processing

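With all genes, 59 calls by edgeR became 412 with DESeq2, 19 with upper-quartile factors, 1274 with the term for the range of animal numbers and 105 with limma, and from 3 (without control mouse 1872 or 1874) to 164 (without control mouse 1827) with each mouse left out. Of the 9 genes DESeq2 called 1, and the other 14 alternatives 0. Of the further neutrophil genes DESeq2 and the number term called 1 each, and of the further monocyte genes 3 and 4, with 0 in the other alternatives. In the other lists the number term called 9 endothelial, 2 border macrophage and 1 each of the red cell, platelet, dendritic cell and recruitment genes. It called 9.50% of all genes. limma's trend method turned the log2 fold changes of S100a8 to -0.38, S100a9 to -0.46, Ngp to -0.46, Camp to -0.41 and Cxcr2 to -0.050, and the number term turned that of Retnlg to 0.28. The cause was not tested. With each mouse left out, S100a8 ran from -1.04 to 0.71, S100a9 from -1.06 to 0.54, Ngp from -1.09 to 0.65, Camp from -1.09 to 0.63, Retnlg from -1.44 to 0.19 and Cxcr2 from -0.15 to 0.29. The first 4 turned negative without CSF1 OE mouse 2019, and Retnlg turned positive without control mouse 1872 or CSF1 OE mouse 1931. Cxcr2 turned negative without control mouse 1827 or 1874 or CSF1 OE mouse 1932, 1936 or 2019. Ly6c2, Ccr2 and Plac8 kept their direction throughout, though Ccr2 ran from -0.91 (without CSF1 OE mouse 2019) to -0.057 (number term), and Ly6c2 was not tested with at least 10 counts in every library. The log2 difference of the Ly6c sum was -0.93 with plain totals (exact permutation p = 0.0571) and from -1.01 to -0.68 with each mouse left out, with an exact permutation p of 0.0286 without control mouse 1827 or CSF1 OE mouse 1936 and of 0.0571 without any other. No paired analysis was possible because the groups share no animal number. Depth limits the primary granule genes, Cxcr1 and the lymphocyte markers, and p-values measure the spread between 4 mice of a group, whose litters are not given. No gene of the 9 fell below the filter, so the permutation test planned for such genes was not needed.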
